A study of Homo sapiens with 10 samples.

Results

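The G1 cyclins, the kinases they activate and 2 genes that bear on those kinases were described across the SALL4 knockdown and over the SALL4 binding regions of SNU398, a human cell line established from a hepatocellular carcinoma. The 10 genes were taken by symbol: the D-type cyclins CCND1, CCND2 and CCND3, the E-type cyclins CCNE1 and CCNE2, the kinases CDK2, CDK4 and CDK6, the inhibitor CDKN1B, and CACUL1. They are 10 of the 56303 rows of the count tables, and all 10 were among the 25807 rows that passed the filter on low counts and were tested. RNA-seq compared 2 libraries of cells carrying a hairpin against SALL4 (knockdown) with 2 libraries of cells carrying a scrambled hairpin (scramble), all taken 72 hours after transduction. SALL4 is a zinc finger protein of early embryos and fetal liver that binds DNA. Its binding was mapped on nuclei of the same line in 3 CUT&RUN libraries, a method that tethers micrococcal nuclease to the antibody-bound protein and sequences the DNA released. IgG libraries were not analysed here. The RNA comparison rests on 1 hairpin in 1 cell line. Whether the libraries of a group stem from separate cultures is not stated in the labels, and every p-value reflects the spread between these libraries alone, which may be technical.

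A cell that leaves rest and enters G1 first makes D-type cyclins, which bind CDK4 and CDK6 and begin to phosphorylate the retinoblastoma protein RB1. RB1 then releases the E2F transcription factors, which drive genes of DNA replication and also the E-type cyclins, and cyclin E with CDK2 completes the phosphorylation and starts S phase. CDKN1B encodes p27, which binds cyclin E-CDK2 and blocks it until the SCF ubiquitin ligase with SKP2 removes it, and the product of CACUL1, a cullin-domain protein also called CAC1, is known to associate with CDK2 and promote its kinase activity.

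Depth was high, at 158934493 to 225624957 gene counts per RNA library. SALL4 itself (chromosome 20, 51782331 to 51802521) checked the labels: it stood at 74.5 and 58.7 CPM (the count scaled to library size) in scramble replicates 1 and 2 and at 21.6 and 18.7 CPM in the knockdown libraries, a 3.31-fold fall. Of 8 hepatocyte markers, albumin, HNF4A and apolipoproteins among them, none reached 1 CPM on average, and their summed level was 0.887 to 1.31 CPM per library. Of 4 oncofetal liver markers GPC3 and SALL4 were above 1 CPM on average, and AFP and DLK1 were below it. Of 4 epithelial markers EPCAM and CDH1 were above 1 CPM on average, and KRT8 and KRT18 were below it. CDH1 was at 0.947 CPM in scramble replicate 1. Among fibroblast markers 5 of 6 were above 1 CPM, led by COL3A1 and LUM, with a summed level of 957.3 to 1039 CPM that overlapped between the groups. COL3A1 made up most of that sum; COL1A1 was called lower (log2 fold change -0.94, edgeR adjusted p = 0.0292), LUM (-0.74), DCN (-0.49) and PDGFRB (-1.16) were lower without passing the test, and COL1A2 (0.34) and COL3A1 (0.15) were higher without passing it. None of the 5 leukocyte and 3 endothelial markers reached 1 CPM. The part of other cell types in the results was not tested.

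After knockdown CDK6, CDKN1B and CACUL1 rose and CCNE1 fell. CACUL1 was 2.33-fold higher, CDK6 1.96-fold, CDKN1B 1.87-fold, and CCNE1 was 2.19-fold lower. The other 6 genes did not pass the test, although CCND1, CCND2, CCND3 and CDK2 were lower in both knockdown libraries than in either scramble library. With edgeR's quasi-likelihood test and an adjusted p under 0.05, 3 of the 10 genes were called higher and 1 lower, against 5.55% of all tested genes called in either direction, 2.31% higher and 3.25% lower. The knockdown and scramble values did not overlap for 8 of the 10 genes, while this held for 47.1% of all genes. The median log2 fold change of the 10 genes was -0.26, beside 0.002 over all tested genes. The 10 genes were chosen with earlier results of these data known, so these comparisons describe the genes and do not test them as a set. In bulk RNA a smaller share of cells making a transcript and less of it per cell cannot be told apart.

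**Figure D1:**
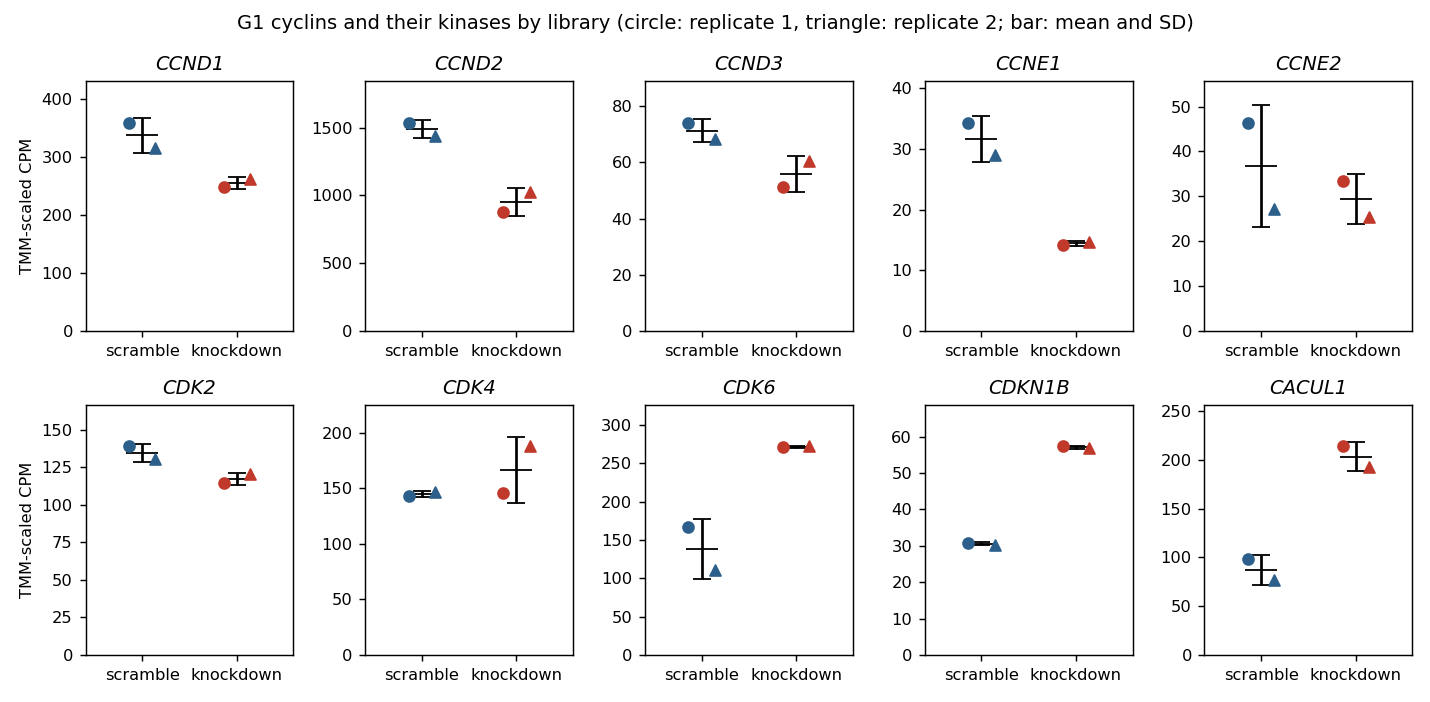
Scaled CPM (vertical axes, starting at 0) of each of the 10 genes in the 4 RNA libraries, with points for replicates and a bar at each group's mean; CCNE1 lies lower and CDK6, CDKN1B and CACUL1 lie higher in both knockdown libraries, and the groups overlap for CCNE2 and CDK4.

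The stretches around 4 transcription start sites, picked from a larger set given below, are shown. Of these genes 2 rose (CACUL1 and CDKN1B), 1 fell (CCNE1) and 1 was not called (CDK4). SALL4 peaks touch all of these stretches but that of CCNE1. Each is 300 bases of the RefSeq annotation of GRCh38.p14, from 250 bases before the start site to 50 after it, written 5′ to 3′ on the gene's strand. Capitals mark bases lying under a SALL4 peak of at least 1 library. The windows are chr10:118754921-118755220 (minus strand) for CACUL1, chr12:12717118-12717417 (plus strand) for CDKN1B, chr12:57752261-57752560 (minus strand) for CDK4 and chr19:29811741-29812040 (plus strand) for CCNE1.
CACUL1: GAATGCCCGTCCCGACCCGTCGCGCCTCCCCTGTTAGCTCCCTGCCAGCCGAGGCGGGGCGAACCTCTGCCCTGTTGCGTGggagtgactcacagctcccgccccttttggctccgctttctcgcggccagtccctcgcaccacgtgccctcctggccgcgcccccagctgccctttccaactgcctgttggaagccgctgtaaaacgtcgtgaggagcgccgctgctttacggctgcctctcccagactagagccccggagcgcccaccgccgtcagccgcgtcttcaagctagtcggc
CDKN1B: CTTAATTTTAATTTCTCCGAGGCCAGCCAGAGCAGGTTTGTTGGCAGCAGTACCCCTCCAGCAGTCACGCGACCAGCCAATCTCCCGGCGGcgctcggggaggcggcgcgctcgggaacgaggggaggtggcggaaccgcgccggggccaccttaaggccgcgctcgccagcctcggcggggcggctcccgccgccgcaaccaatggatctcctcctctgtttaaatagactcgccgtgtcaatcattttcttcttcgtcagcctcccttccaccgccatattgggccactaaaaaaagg
CDK4: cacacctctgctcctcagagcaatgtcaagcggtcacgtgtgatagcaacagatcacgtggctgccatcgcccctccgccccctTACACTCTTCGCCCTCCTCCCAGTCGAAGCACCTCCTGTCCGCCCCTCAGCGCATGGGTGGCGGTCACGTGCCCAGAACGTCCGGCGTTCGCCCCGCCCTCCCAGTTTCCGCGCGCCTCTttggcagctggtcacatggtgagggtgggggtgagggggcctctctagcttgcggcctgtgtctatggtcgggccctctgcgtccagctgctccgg
CCNE1: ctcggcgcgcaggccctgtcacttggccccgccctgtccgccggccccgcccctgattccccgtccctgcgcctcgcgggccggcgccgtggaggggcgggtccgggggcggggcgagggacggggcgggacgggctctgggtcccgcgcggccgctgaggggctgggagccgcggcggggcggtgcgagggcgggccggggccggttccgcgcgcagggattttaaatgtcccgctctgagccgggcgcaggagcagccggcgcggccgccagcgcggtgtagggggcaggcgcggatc

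In the CACUL1 window 81 bases were covered, from position -250 to -170 counted from the start site, by peaks of libraries 1 and 3. In the CDKN1B window 91 bases were covered, from -250 to -160, by a peak of library 2 alone. In the CDK4 window 120 bases were covered, from -166 to -47, by a peak of library 1 alone. The CCNE1 window had no peak of any library. Sequence tables matched 6 of the 10 genes with 9 windows in all. Among those not printed, CDK6, which also rose, has a window with no peak and another with a peak of library 3 alone. CCND3, not called, has windows with no peak and another with a peak of library 2 alone. A link between peaks at start sites and the direction of change was not tested.

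These windows are rich in G and C. The CCNE1 window was 81.0% G or C, the CACUL1 window 68.3%, the CDK4 window 66.0% and the CDKN1B window 62.3%, beside a median of 58.7% over 35116 windows of the same length. Short motifs were searched on both strands, with overlapping matches counted separately. The GC box GGGCGG, the site of Sp1-family factors, was found 7 times in the CCNE1 window, 3 times for CDK4 and 1 time each for CDKN1B and CACUL1, and 45.0% of all windows hold it. The E-box CACGTG, bound by MYC and related factors, was found 3 times for CDK4 and 1 time for CACUL1, and 7.26% of all windows hold it. The CDKN1B window held 3 copies of CCAAT, present in 34.6% of all windows, and 1 copy of the AT-rich letters ATATT, present in 23.0%. That ATATT lies outside the bases under a peak. Among the windows not printed, a CDK6 window held ATATT 2 times. The other CDK6 window held the GC box 3 times and the E-box 1 time. CCND3 windows held the GC box 5, 4 and 0 times and CCAAT 0, 1 and 1 time. Neither TTTCCCGC nor TTTGGCGC, written forms of the E2F site, was found in the 9 windows, and 1.63% and 0.652% of all windows hold them. A match describes the letters and is not a measured site.

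CCND1 encodes cyclin D1, the D-type cyclin most often amplified in tumours (chromosome 11, 69641156 to 69654474, hg38). It stood at 359.4 and 316.2 CPM in scramble replicates 1 and 2 and at 248.7 and 262.3 CPM in knockdown replicates 1 and 2. Both knockdown libraries were below both scramble libraries. The log2 fold change was -0.40 (SE 0.18), and the gene did not pass the test (edgeR adjusted p = 0.235, unadjusted p = 0.0373).

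CCND2, the gene of cyclin D2 (chromosome 12, 4273762 to 4305353), was at 1536 and 1440 CPM in the scramble libraries and at 880.6 and 1028 CPM in the knockdown libraries. The gap between the groups was wider than the gap within either. Its group means were 1488 ± 68.3 CPM in scramble and 954.4 ± 104.3 CPM in knockdown (SD, n = 2 per group), and the log2 fold change was -0.64 (SE 0.20). With an edgeR adjusted p of 0.0565 it lay just outside the threshold. Of the 11 alternatives 4 called it lower, among them DESeq2 (adjusted p = 0.0137), no filter on low counts (0.0222) and a filter of 5 CPM (0.0491), and the highest adjusted p was 0.273. The antisense transcript CCND2-AS1 overlaps the gene and was at 0.150 CPM in knockdown and 0.211 CPM in scramble on average.

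CCND3, the gene of cyclin D3 (chromosome 6, 41934933 to 42050035), was at 74.1 and 68.4 CPM in the scramble libraries and at 51.3 and 60.4 CPM in the knockdown libraries. The groups did not overlap, and the gene did not pass the test, at -0.35 on the log2 scale (SE 0.18; edgeR adjusted p = 0.310). All 3 D-type cyclins were thus at lower values in both knockdown libraries and none was called. The pseudogenes CCND2P1, CCND3P1 and CCND3P2 had at most 3 counts in any library.

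CDK4 and CDK6 are the kinases that D-type cyclins activate. CDK6 (chromosome 7, 92604921 to 92836573) was at 166.2 and 110.4 CPM in scramble replicates 1 and 2 and at 270.6 and 271.8 CPM in the knockdown libraries. The knockdown libraries were nearly equal, and the scramble libraries stood apart by 0.59 on the log2 scale, beside a median distance of 0.19 between the scramble libraries over 9787 genes of at least 10 CPM. The group means were 271.2 ± 0.848 and 138.3 ± 39.4 CPM, and the log2 fold change of 0.97 passed the test (SE 0.20; edgeR adjusted p = 0.00442). Without scramble replicate 2 the log2 fold change was 0.72 and the call was lost (adjusted p = 0.0944).

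CDK4 (chromosome 12, 57747727 to 57752310) was at 142.5 and 146.7 CPM in the scramble libraries and at 145.2 and 187.5 CPM in the knockdown libraries. The groups overlapped, and knockdown replicate 2 alone stood above the rest. The log2 fold change was 0.20 (SE 0.18; edgeR adjusted p = 0.642), and without knockdown replicate 2 it was -0.003. TSPAN31 overlaps CDK4 and was at 11.3 and 10.7 CPM on average in knockdown and scramble. As the strand setting of the counting is not given in the sources used here, reads of overlapping genes cannot be told apart.

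The count of CDK6 relative to that of CDK4 was compared within each library, which needs no scaling between libraries. The log2 ratio of their counts was 0.22 and -0.41 in scramble replicates 1 and 2 and 0.90 and 0.54 in knockdown replicates 1 and 2. Both knockdown libraries had a higher ratio, by 0.81 on average. Such a ratio does not compare the levels of the 2 genes, as it is not corrected for transcript length. With 2 libraries against 2 an exact two-sided permutation test cannot give a p below 0.333.

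CCNE1 encodes cyclin E1 (chromosome 19, 29811991 to 29824312), which activates CDK2 at the entry into S phase. Its counts were 6732 and 4610 in scramble replicates 1 and 2 and 2853 and 3208 in the knockdown libraries, or 34.3 and 29.0 CPM against 14.2 and 14.7 CPM. The knockdown libraries lay close together, well below both scramble libraries. The means were 14.5 ± 0.370 CPM in knockdown and 31.6 ± 3.74 CPM in scramble (SD, n = 2 per group). CCNE1 fell by 1.13 on the log2 scale (SE 0.20; edgeR adjusted p = 7.90e-04), and it was called lower in each of the 11 alternatives tried.

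CCNE2 encodes cyclin E2, the second E-type cyclin (chromosome 8, 94880224 to 94896693). It was at 46.4 and 27.2 CPM in scramble replicates 1 and 2 and at 33.4 and 25.5 CPM in knockdown replicates 1 and 2. The groups overlapped, and in both groups replicate 1 was above replicate 2, by 0.77 on the log2 scale in scramble and 0.39 in knockdown. The log2 fold change was -0.32 (SE 0.24; edgeR adjusted p = 0.550), and it turned to 0.11 without scramble replicate 1. INTS8 and NDUFAF6 overlap the annotated span of CCNE2, and neither passed the test. Within libraries the log2 ratio of CCNE1 to CCNE2 counts was -0.44 and 0.09 in scramble and -1.24 and -0.79 in knockdown, lower in both knockdown libraries. A difference between the responses of the 2 cyclins was not tested further.

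CDK2, the partner kinase of the E-type cyclins (chromosome 12, 55966830 to 55972789), was at 139.0 and 130.5 CPM in the scramble libraries and at 114.6 and 120.4 CPM in the knockdown libraries. The groups did not overlap, but the distance was small. The log2 fold change was -0.20 (SE 0.18), and the gene did not pass the test (edgeR adjusted p = 0.635).

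CDKN1B (chromosome 12, 12717368 to 12722369), the gene of the CDK2 inhibitor p27, had closely matched replicates, at 30.8 and 30.3 CPM in the scramble libraries and at 57.3 and 56.8 CPM in the knockdown libraries. Each group's libraries were within 0.03 of each other on the log2 scale. The rise from 30.5 ± 0.398 to 57.1 ± 0.385 CPM (SD, n = 2 per group) amounted to 0.90 on the log2 scale (SE 0.18; edgeR adjusted p = 0.00321). It was called higher in each of the 11 alternatives, at log2 fold changes of 0.84 to 0.93.

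The counts of the inhibitor were also set against those of its targets within each library. The log2 ratio of CDKN1B to CCNE1 counts was -0.15 and 0.06 in scramble and 2.01 and 1.95 in knockdown. The log2 ratio of CDKN1B to CDK2 counts was -2.17 and -2.11 in scramble and -1.0 and -1.08 in knockdown. Both ratios were higher in every knockdown library, by 2.03 for CCNE1 and 1.1 for CDK2 on average. They restate the changes of the single genes given here and are no separate support. Neither ratio is corrected for transcript length, and protein was not measured.

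CACUL1 (chromosome 10, 118676411 to 118754970) had the largest log2 fold change of the genes that rose. It was at 98.2 and 76.5 CPM in scramble replicates 1 and 2 and at 213.8 and 193.0 CPM in the knockdown libraries. The lowest knockdown value lay well above the highest scramble value. Its means were 203.4 ± 14.8 and 87.3 ± 15.3 CPM (SD, n = 2 per group). The log2 fold change was 1.22 (SE 0.19; edgeR adjusted p = 2.45e-04), and the gene was called higher in each of the 11 alternatives.

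**Figure D2:**
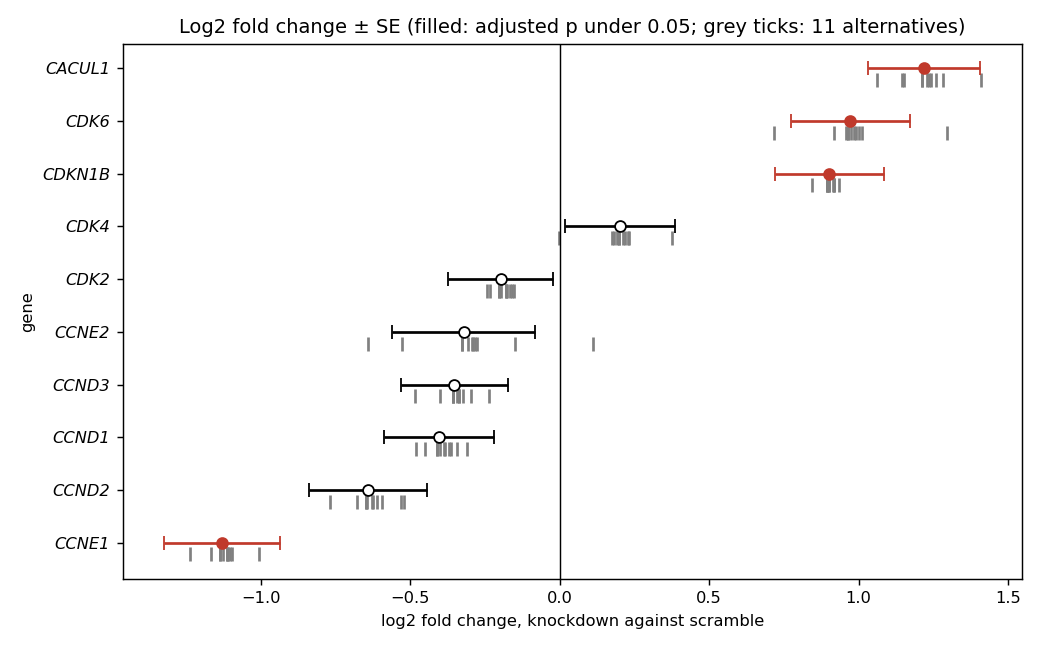
Log2 fold change of knockdown against scramble for the 10 genes (horizontal axis), with SE bars and with genes past an adjusted p of 0.05 filled; CACUL1, CDK6 and CDKN1B lie between 0.90 and 1.22 and CCNE1 lies at -1.13.

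The authors' deposited table, which comes from a fit of their own, lists all 10 genes. For 15141 of its 15141 genes its log2 fold changes were recovered, within 1e-06, when limma-voom was run with terms for group and replicate number on the authors' combined counts of the same 4 libraries. At an adjusted p under 0.05 the authors' deposited table has 3 of the 10 genes higher, against 17.2% of all its genes, and 5 lower, against 19.8%. The 4 genes called above have the same directions there, with log2 fold changes of 1.17 for CACUL1, 0.94 for CDK6, 0.85 for CDKN1B and -1.10 for CCNE1 in the authors' deposited table. The further 4 that the authors' deposited table has lower are CCND2 (-0.51), CCND1 (-0.33), CCND3 (-0.34) and CCNE2 (-0.27). CDK4 and CDK2 pass in neither.

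How many other genes of the G1/S machinery were called differed between the tools. Of 53 genes in 6 lists, all tested, edgeR called 0 higher and 1 lower, against 5.55% of all tested genes in either direction. DESeq2 called 4 of them, against 7.55% of all genes, and 12 stood at an unadjusted p under 0.05, against 18.1%. Their median log2 fold change was 0.06, and the groups did not overlap for 28 of them, against 47.1% of all tested genes. The gene that fell was CDK7, the catalytic subunit of the CDK-activating kinase that phosphorylates CDK2, CDK4 and CDK6: it was at 23.3 and 21.6 CPM in scramble and at 12.2 and 12.0 CPM in knockdown, with no overlap. Its log2 fold change was -0.89 (SE 0.20; edgeR adjusted p = 0.00698). It no longer passed when knockdown replicate 1 (adjusted p = 0.0511) or scramble replicate 1 (0.05004) was left out.

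By role, and beside the same 7.55% for DESeq2 and 18.1% for unadjusted p, none of the 6 other INK4 and CIP/KIP inhibitors was called by edgeR or DESeq2, and 1 had an unadjusted p under 0.05. Of the 13 pocket proteins and E2F or DP factors, which include RB1, none was called by edgeR, 2 by DESeq2, and 4 had an unadjusted p under 0.05. Of 13 genes for the turnover of G1 cyclins and p27, none was called by edgeR, 1 by DESeq2, and 3 had an unadjusted p under 0.05. None of the 6 S phase and other cyclins was called by either tool, with 1 at an unadjusted p under 0.05. None of 9 E2F target genes was called by either tool, with 1 at an unadjusted p under 0.05. Of the 6 kinases, phosphatases and chaperone acting on G1 kinases CDK7 alone was called, by both tools. In that list 2 genes, CDK7 among them, had an unadjusted p under 0.05.

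**Figure D3:**
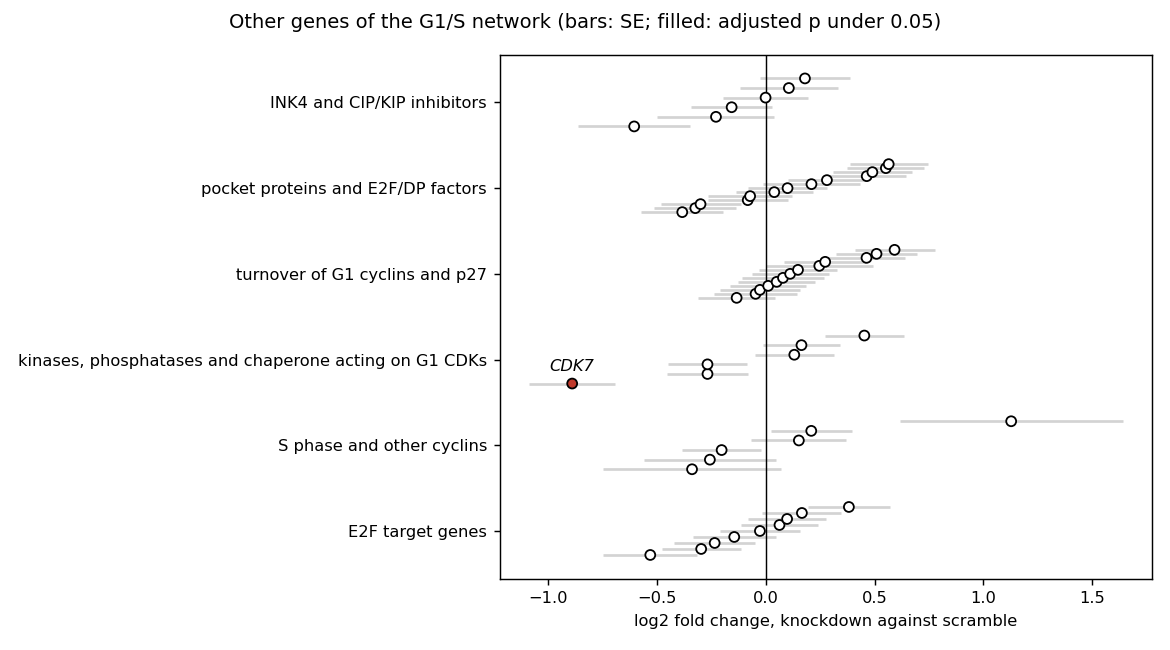
Log2 fold change of knockdown against scramble (horizontal axis) for 53 further genes of the G1/S network, grouped in 6 lists, with SE bars and with genes past an adjusted p of 0.05 filled. CDK7 is the filled point, and the others lie on both sides of 0.

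For each called gene the 3 genes with the most similar pattern were found among 12515 tested genes of at least 1 CPM, by the distance between log2 CPM values centred on their mean over the 4 RNA libraries. CCNE1 was closest to ERVMER34-1 (distance 0.06), CACYBP (0.09) and SMARCB1 (0.09). CDK6 was closest to MNS1 (0.10), CFAP54 (0.11) and CALD1 (0.12). CDKN1B was closest to LEF1-AS1 (0.03), ZNF572 (0.05) and SLC24A1 (0.06), and CACUL1 to CCDC148 (0.08), CCDC90B (0.10) and CCT6B (0.14). With 4 libraries such likeness is a description only.

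SALL4 binding was read from the authors' list of 11201 regions common to the 3 CUT&RUN libraries and from each library's own peaks. Of the 10 genes 4 had a common region over their span, CCND1, CDK4, CDK6 and CACUL1, against 13.9% of 20037 protein-coding genes. Of these, CDK6 and CACUL1 rose after knockdown, and CCND1 and CDK4 were not called. CDKN1B and CCNE1, also called, had no common region. The part of the CDK4 and CACUL1 regions that overlaps the span holds no peak, as the peaks under them lie upstream. Long genes collect more regions: the share of genes with a region was 5.02% for spans up to 10 kb, 8.12% for 10 to 30 kb, 15.6% for 30 to 100 kb and 30.0% for 100 to 300 kb. The 10 genes held 6 regions, or 1.17 per 100 kb of their summed span, beside 0.440 over all protein-coding spans. CDK6 held 3 of the 6. As 1 bp of overlap counted, a short span can stand high per length: CDK4, of 4584 bp, had 21.8 per 100 kb with 1 region.

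The CACUL1 region, chr10:118754676-118755888 in hg38, lies across the 5′ end of the gene, and its midpoint is at -312 bp (negative positions are upstream of the 5′ end). It gathers 1 peak of library 1, 2 of library 2 and 2 of library 3, whose midpoints lie between -206 and -615 bp from the start site in the sequence printed above. The CDK4 region, chr12:57751916-57754659, also crosses the gene's 5′ end, with its midpoint at -977 bp. It holds 2 peaks of library 1, 1 of library 2 and 2 of library 3, and the one nearest the start site, of library 1, is centred at -106 bp. CACUL1 rose and CDK4 was not called, and both have their region across the 5′ end. For both, every peak under the region lies upstream of the 5′ end, and the part of the region over the span holds no peak. When regions were rebuilt from pairs of libraries, they ended at their outermost peaks, so rebuilt regions at these 5′ ends did not reach the spans. The 1 rebuilt region over CACUL1 without library 2 and the 1 over CDK4 without library 1 lie over other peaks. Rebuilding thus does not test the regions at these 5′ ends.

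CDK6 carries its 3 regions inside the gene, at 14514 bp, 38079 bp and 144005 bp from its 5′ end: chr7:92821261-92822857, chr7:92797738-92799251 and chr7:92690910-92694227. The gene table used gives spans and no exons, so exon or intron is not stated. In library 3 the CDK6 span held 85 peaks, or 3.67 per 10 kb, beside 1.12 per 10 kb over all protein-coding spans. In library 1 it held 22 (0.950 against 0.274 per 10 kb) and in library 2 it held 46 (1.99 against 1.48). The density of CDK6 was above that of all spans in each library. The same held for CCND1 and CCNE2, neither of which was called, and CCNE2 had no common region. In libraries 1 and 2 the density of CCND1 was also above that of CDK6. Rebuilt regions over CDK6 numbered 19, 8 and 5 without libraries 1, 2 and 3, from lists longer than the deposited one.

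The CCND1 region, chr11:69651715-69654362, lies inside the gene span, with its midpoint 1436 bp from the end with the higher coordinate. The nearest common region was 14922 bp away from CCND2, 18881 bp from CDK2, 54977 bp from CDKN1B and 114898 bp from CCND3. It was 371339 bp away from CCNE2 and 1878247 bp from CCNE1, the farthest of the 10 genes. CCNE1 also had the fewest peaks per library, 0 in libraries 1 and 2 and 1 in library 3, a count matched by CDK2.

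Peak heights are whole multiples of a step within 0.01 of a step, and under the 6 regions the highest peak of each library reached 3 to 6 steps, where the median over all peaks is 4 steps in library 1 and 3 in libraries 2 and 3. At most 4 steps were reached by 66.9% of all peaks in library 1, 96.4% in library 2 and 95.2% in library 3. By total signal the highest peak under each region stood between percentiles 73.7 and 98.4 of its list in library 3, 37.0 and 99.7 in library 2, and 1.59 and 88.0 in library 1. The percentile in library 1 was below that in library 3 for all 6 regions. In none of the 6 regions was a single position covered by all 3 libraries, which 10.3% of all common regions have. The CDK4 region was the only one of the 6 with, in every library, a peak above that library's median total signal, as 38.9% of all common regions have. The count of 4 genes with a region fell to 0 and 1 under these stricter demands, which 1.63% and 5.77% of protein-coding genes meet.

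**Figure D4:**
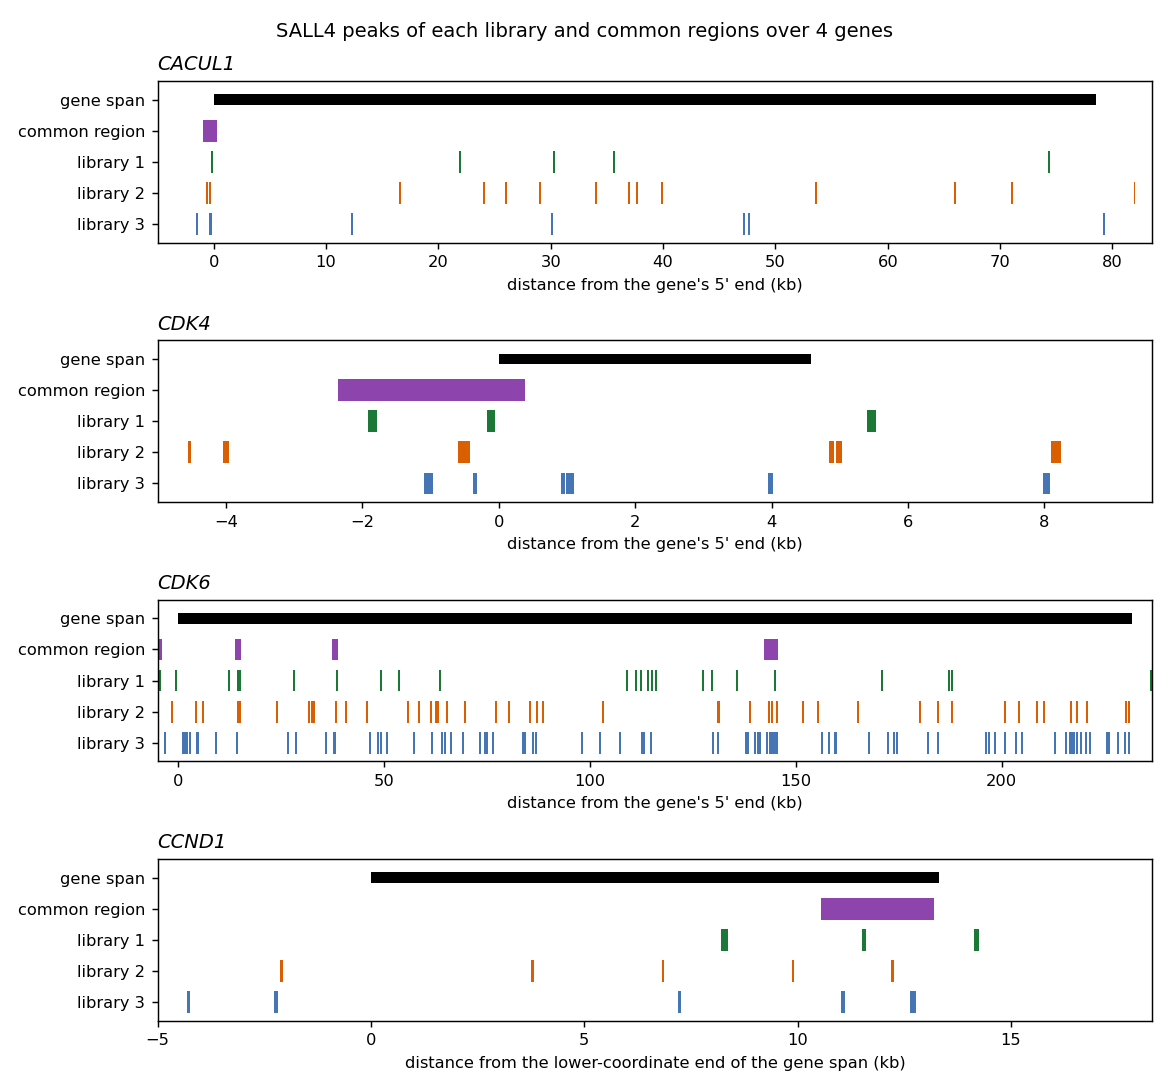
SALL4 common regions and the peaks of the 3 CUT&RUN libraries along CACUL1, CDK4, CDK6 and CCND1 (horizontal axes in kb); regions of CACUL1 and CDK4 lie across the 5′ end and the 3 of CDK6 lie inside the gene, with a further region upstream of it at the panel's edge that does not overlap the span.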

How the data were processed

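RNA-seq libraries (2 knockdown, 2 scramble) and SALL4 CUT&RUN libraries (3) were grouped as labelled. Tools named in the submitters' processing notes include Trim Galore 0.4.5, STAR, featureCounts and DESeq2 for builds hg38 and sacCer3, and BWA 0.7.17-r1188, SEACR 1.1 and HOMER 4.10; what each did, the annotation, the strand setting and the scaling were not stated there. The authors deposited raw counts per gene symbol, 1 table per library, used here, and a combined matrix with lower counts, used as an alternative. The authors' deposited comparison table gives log2 fold changes and p-values of their own fit, compared with limma-voom 3.58.1 on the combined matrix. The deposited peak lists, 1 per library in the layout SEACR writes, give the total and highest signal of each peak, and the deposited common list gives merged regions.

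Rows with low counts were removed by filterByExpr and libraries scaled by TMM. All genes were tested in edgeR 4.0.16 under R 4.3.3, with robust quasi-likelihood dispersions, an F test on group and no other term, and Benjamini-Hochberg adjustment at a threshold of 0.05. The SE is the size of the log2 fold change divided by the square root of F. CPM values are TMM-scaled. Alternatives were the replicate number as a block, DESeq2 1.42.0, median-of-ratios and upper quartile scaling, no filter, 5 CPM, each library left out and the combined matrix. With 2 libraries a group, the spread between libraries sets the precision, not the depth.

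Regions were overlapped with RefSeq gene spans of GRCh38.p14, the same assembly as hg38, by at least 1 bp; for genes with a start-site window, strand came from the window table. Alternatives extended spans by 3 and 10 kb, asked for 200 bp, a position in all 3 libraries or a peak above the median total signal in each, or rebuilt regions without 1 library by merging peak centres within 1000 bp.

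The naming rule covers the 10 genes, SALL4, called genes of the 6 lists, the 3 most alike genes of each called one of the 10 (prior count 2 for log2 CPM) and genes overlapping one of the 10. Cell type markers were listed separately, and pseudogenes of the 10 and 3 network genes next to the threshold are named outside the rule, after their values were seen. The 10 genes and the lists were chosen with earlier results of these data known. A gene of the lists is not reported here.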

Additional observations from a re-analysis of the deposited data

How the results depend on the processing

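Of 110 alternative values of the 10 genes' log2 fold changes, 103 kept direction and side of the threshold. CCND2 was called in 4, so that 2 of the 10 genes were called lower with the replicate block, DESeq2, no filter and 5 CPM, and CDK6 lost its call in 1. Leaving out 1 library each moved CCNE2 from -0.64 to 0.11 and CDK4 from -0.003 to 0.38. Genes called higher over the whole table numbered 595 (2.31% of those tested), and 2309 (8.95%) with the replicate block, 363 (1.41%) with upper quartile scaling, 259 (2.33%) at 5 CPM and 308 to 408 (1.12 to 1.48%) with 1 library left out. Genes called lower numbered 838 (3.25%), and 2612 (10.1%), 435 (1.69%), 395 (3.55%) and 492 to 783 (1.79 to 2.85%) in the same order. Of the 53 network genes 0 were called higher by edgeR, 8 (15.1%) with the replicate block, 3 with DESeq2 (5.66%, all genes 3.11%), 3 with no filter (5.66%, all genes 2.08%), 2 of the 48 tested at 5 CPM (4.17%), 0 with upper quartile scaling, 0 with the combined matrix and 0 with any 1 library left out; 4 (7.55%) were called lower with the block and 0 to 2 with 1 library left out. Of the 10 genes, those with a common region numbered 0 when a position in all 3 libraries was asked for (1.63% of protein-coding genes), 1 with a peak above the median total signal in each (5.77%), and 3 to 7 when regions were rebuilt without 1 library (25.0 to 48.3%; the 7 genes go with the 48.3%). Rebuilt regions end at their outermost peaks, so these counts do not test the CACUL1 and CDK4 regions at the 5′ ends. The causes were not tested.

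Equal replicate numbers are not stated to mark shared cultures. The deviations of same-numbered libraries had a correlation of 0.24 over 25807 genes, with only 2 pairs. The authors' log2 fold changes were recovered with a replicate term in the fit, and with group alone for only 2 of 15141 genes. The main fit here has group alone. With the block CCND2 had an adjusted p of 0.0127 (edgeR), and the other 9 genes kept their side of the threshold.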

Other observations

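SKP2, TFDP2 and E2F1 lay next outside the threshold among the 53 network genes and are named after their values were seen. SKP2, which recognises p27 for degradation, was at 74.7 and 57.6 CPM in the scramble libraries and at 100.6 and 98.9 CPM in the knockdown libraries (log2 fold change 0.59, SE 0.18, edgeR adjusted p = 0.0582). E2F1, a transcription factor held by RB1, was at 85.5 and 81.3 CPM in scramble and at 118.3 and 126.2 CPM in knockdown (0.55, SE 0.18, adjusted p = 0.0671). TFDP2, a dimer partner of E2F factors, was at 53.9 and 51.8 CPM in scramble and at 73.2 and 83.0 CPM in knockdown (0.57, SE 0.18, adjusted p = 0.0635). The groups did not overlap for any of the 3, as for 47.1% of all tested genes, and DESeq2 called these 3 and CDK7. As the 3 were picked by their p-values on the same libraries, neither adds support.

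The combined matrix holds fewer counts than the per-library tables. For CCNE1 it held 0.755 and 0.643 of the count of knockdown replicates 1 and 2 and 0.868 and 0.801 of that of scramble replicates 1 and 2, and for CDK4 0.615, 0.520, 0.715 and 0.677 in the same order.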
